A study of Mus musculus with 14 samples.

Results

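The comparison described here set β-cells of adult mice against β-cells of newborn mice, using 6 of the 14 RNA sequencing libraries of the series: 3 from wild type C57BL/6 mice at postnatal day 45 and 3 from wild type C57BL/6 mice at postnatal day 6. The libraries were chosen by the age in their labels, and no measured value entered that choice. The other 8 libraries of the series came from whole islets and were not used. According to its title, the series deals with a switch from the growth kinase complex mTORC1 to the energy sensor AMPK in β-cells, so the comparison addresses what differs between immature and mature β-cells. The labels call the tissue pancreatic β-cells and do not say how the cells were purified or whether each library came from separate animals. If the libraries of an age are not separate animals, the p-values measure only technical spread. The deposited table heads 2 neonatal columns with number 3 and none with number 2, and these libraries are called neonatal 3a and 3b.

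β-cells are the insulin-secreting cells of the pancreatic islet. Glucose metabolism raises ATP, ATP closes potassium channels, and the depolarised membrane opens calcium channels whose calcium triggers the fusion of insulin granules. Newborn rodent β-cells divide and release insulin poorly in response to glucose, and they gain that response over the weeks around weaning. Hormone and neurotransmitter receptors on the cell surface tune the release, and peptides other than insulin are packed into the same granules.

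Gene counts per library ranged from 12696006 to 16222921, which were 24.52% to 43.11% of the reads in the table. Adult library 3 had the largest share of reads that were not aligned, 53.64%. In a principal component analysis of all tested genes, the first component, with 35.7% of the variance, placed the adult libraries at 51.84 to 70.59 and the neonatal ones at -93.92 to -21.68. The second component, with 26.7%, set neonatal 3a at -106.36 and neonatal 3b at 88.36, with all other libraries between 2.54 and 9.62. Neonatal 3a and 3b differed from each other by a root mean square of 1.64 in log2 CPM (read counts scaled to library size). Adult libraries differed less among themselves, by 1.01 to 1.13. Pairs of an adult and a neonatal library differed by 1.21 to 1.66, so neonatal libraries lay about as far from each other as from the adult ones. Neonatal 1 differed by 1.41 from 3a and 1.4 from 3b, but by 1.33, 1.34 and 1.21 from adult libraries 1, 2 and 3. Neonatal 3a and 3b were kept as separate replicates of the neonatal group.

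The labelled cell type was checked against its markers. All 12 β-cell markers were detected, and their summed level was 90030, 92860 and 57090 CPM in adult libraries 1, 2 and 3 and 35500, 30600 and 26710 in neonatal libraries 1, 3a and 3b. The α-cell hormone gene Gcg stood at 1640.0, 134 and 754 CPM in the adult and 1025, 474 and 1243 in the neonatal libraries. Of 15 acinar markers 12 were detected, and the list summed to 81.1 to 116 CPM in adult and 130.1 to 170.5 CPM in neonatal libraries, with Prss1, Ctrc and Ptf1a at 0 in all 6. Ctrb1, a digestive protease, was the 1 acinar marker called among 8 tested (1.74, 0.357 and 0.32 against 8.13, 3.83 and 29.4 CPM; -4.07 ± 0.93, edgeR adjusted p = 0.0143), and the call was lost with limma-voom and without adult library 2 or 3 or neonatal 3b. The duct marker Car2 was at 0 in all 6 libraries. Markers of PP and ε-cells summed to 219.9, 35.7 and 141 CPM in adult and 466.5, 368 and 576 CPM in neonatal libraries. All 3 genes tested under their listed symbols lay lower in every adult library, 1 of them called. A further marker of that list, Tmem27, carries the symbol Cltrn in these data and is missing from the sums. Cltrn was higher in adults (mean 410.5 against 246.9 CPM, 0.73 ± 0.18, edgeR adjusted p = 0.0241). Its call was kept in only 2 of the 6 fits that left out a library. Of 5 tested δ-cell markers, 3 were lower and 1 higher in adults. Other marker sums were uneven too. The 11 tested duct markers summed to 560 to 708 CPM in adult and 1069 to 1684 CPM in neonatal libraries, and 5 of them were lower in adult cells, among them the keratin Krt7 at 148, 172 and 168 against 346, 429.8 and 281 CPM. Without 1 library at a time, 1 to 5 duct markers were lower. The 21 immediate early genes, which respond to stimulation and to cell dissociation, summed to 5760 and 5859 CPM in neonatal 1 and 3b but to 757 in neonatal 3a, with 1323 to 2252 in the adult libraries. Mesenchymal markers summed to 259.5 CPM in neonatal 3b and to 18.2 to 50.8 CPM elsewhere. The part of these other cells and of handling in the results below was not tested. In bulk RNA, a larger share of cells with a transcript and more of that transcript per cell cannot be told apart.

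Of 14304 genes tested with edgeR's quasi-likelihood test, 484 (3.38%) were higher and 515 (3.6%) were lower in adult β-cells at an adjusted p below 0.05. These shares are the background for every family below. All 3 adult libraries lay above all 3 neonatal ones in 14% of tested genes and below them in 13.4%. The counts rested on the libraries used: without adult library 1, 2 or 3 they were 217, 220 or 242 higher and 188, 210 or 221 lower, and without neonatal 3a they were 669 and 711. Scaling by library size alone gave 321 higher and 872 lower, and it moved the median log2 difference of all genes from -0.03 to -0.19. For that reason each gene was followed through 13 alternative settings, 6 of which left out a library. Of 225 called genes in the lists described here, 94 kept their call in every setting that tested them, and a gene called higher or lower below is among those 94 unless its exception is given. In every gene so described, the libraries of the ages did not overlap. Values are listed as adult libraries 1, 2 and 3 and then neonatal libraries 1, 3a and 3b, in CPM, and differences are log2 fold changes of adult over neonatal cells with their standard error.

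**Figure D1:**
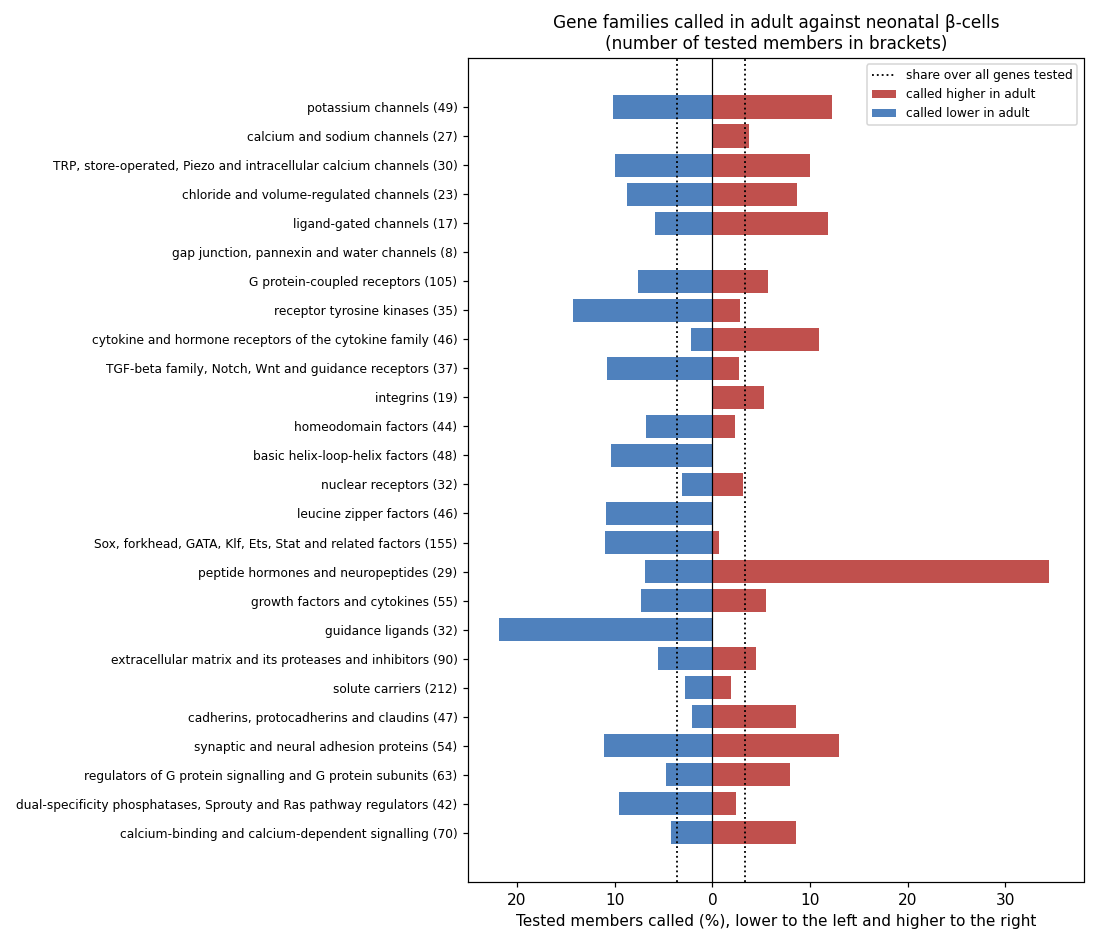
Share of the tested members of each gene family called higher (right, red) or lower (left, blue) in adult β-cells, in percent, with the share over all genes tested as dotted lines. Peptide hormones reach furthest to the right, at 34.5%, and guidance ligands furthest to the left, at 21.9%, while all 5 families of transcription factors have larger or equal shares to the left.

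Channels were called in both directions at shares above those of all genes. Of 347 channel genes in the table, 154 had enough counts to be tested, and 14 of these (9.09%) were higher and 11 (7.14%) lower in adult cells. Their median log2 difference was -0.07, close to the -0.03 of all genes. Without adult library 1, 2 or 3 there were 9, 10 or 11 higher and 5 lower channel calls each time, and without neonatal 3b 17 higher and 7 lower. Once trends on GC content and length were taken out, 12 channel genes were higher and 5 lower, against 414 and 348 of 13757 genes tested that way. The excess of lower channel calls was therefore smaller in that setting. Potassium channels made up 11 of the 25 calls, with 6 higher and 5 lower of 49 tested. The gap junction gene Gjd2, which couples neighbouring β-cells, was not called and stood at 206, 272 and 318 and 265, 290.1 and 257 CPM (edgeR adjusted p = 0.954).

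Among the potassium channels, the largest fall was in Kcnk9, which encodes the leak channel TASK3. Its level was 1.47, 2.28 and 2.16 CPM in adult and 70.6, 51.2 and 74.5 CPM in neonatal libraries. The level was low in all adult libraries, and the fitted level was 33.1-fold lower in adults (-5.05 ± 0.36, edgeR adjusted p = 8.53e-07). Kcnq1, a slowly activating voltage-gated channel, went the same way, from 18.3, 22.4 and 22.9 CPM in neonates to 3.75, 1.21 and 2.96 in adults (-3.0 ± 0.54, edgeR adjusted p = 0.00314). The reverse was seen for Kcna2, the voltage-gated subunit Kv1.2, at 31.04, 23.7 and 34.2 CPM in adults and 3.51, 1.68 and 0.669 in neonates, a 15.1-fold rise (3.92 ± 0.56, edgeR adjusted p = 0.000483). Kcna2 was therefore low in every library at day 6 and clearly counted at day 45. Kcnmb2, an auxiliary subunit of the large-conductance calcium-activated channel, rose from 57.7 ± 17.4 to 134 ± 10.2 CPM (SD, n = 3 each; 1.22 ± 0.23), whereas the pore gene of that channel, Kcnma1, was not called (122, 142 and 134 against 109, 173 and 160.2 CPM; -0.15 ± 0.20, edgeR adjusted p = 0.742).

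Further potassium channel calls depended on a setting. Kcnf1, an electrically silent modifier subunit, stood at 43.3, 21.1 and 13.4 against 1.04, 0.269 and 0.7303 CPM (5.23 ± 0.65), and its call was lost with limma-voom alone (adjusted p = 0.0506). The G protein-gated channel Kcnj5 (18.7, 28.7 and 14.2 against 4.098, 2.08 and 4.44 CPM; 2.53 ± 0.52) lost its call without adult library 2 (2.22, adjusted p = 0.0922). Kcnh2, the delayed rectifier hERG, was lower in adults at 74.98, 70.8 and 50.9 against 156, 117 and 181 CPM (-1.21 ± 0.22), but lost its call once trends on GC content and length were taken out (-0.68, adjusted p = 0.0626). Per kilobase of transcript, Kcnk16, the islet leak channel TALK-1, had the highest adult level of the tested potassium channels, 56.9 CPM per kb, followed by Kcnmb2 at 46. Kcnk16 was lower in adults (119, 140.2 and 104 against 229, 165 and 227 CPM; -0.77 ± 0.19, edgeR adjusted p = 0.0215), a call lost without any 1 adult library and without neonatal library 1 or 3b.

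In the sodium and calcium channel family only Scn9a was called among 27 tested genes. Scn9a encodes Nav1.7, a voltage-gated sodium channel, and it was counted at 384, 308 and 261 CPM in adult and 101, 66.1 and 133 CPM in neonatal libraries. The lowest adult library lay well above the highest neonatal library, and the fitted rise was 3.18-fold (1.67 ± 0.23, edgeR adjusted p = 0.000518). The channel genes that carry most calcium entry of β-cells showed small differences that did not pass. Cacna1d stood at 272, 286 and 279 and 254, 288 and 386 CPM (-0.15 ± 0.17), Cacna1a at -0.33 and Cacna1c at 0.56 on the log2 scale (edgeR adjusted p = 0.713, 0.248 and 0.0897). Nalcn, the sodium leak channel, had 94.2, 107 and 99.2 CPM in adults against 17.2, 14.9 and 65.7, with neonatal 3b far above the other neonatal libraries, and did not pass (edgeR adjusted p = 0.142).

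Channels of calcium stores and of the TRP family split by direction. Itpr3, the type 3 inositol trisphosphate receptor that releases calcium from the endoplasmic reticulum, fell from 283, 382 and 402 CPM in neonates to 83.9, 111 and 131 in adults (3.28-fold lower; -1.71 ± 0.20, edgeR adjusted p = 7.3e-05). Its relative Itpr1, which had the highest adult level per kilobase of this family (35.2 CPM per kb), was not called (308, 366 and 369 against 217, 309 and 438 CPM; 0.11 ± 0.21, edgeR adjusted p = 0.836). Trpm5 and Trpm3, both cation channels studied in β-cells, rose. Trpm5 was counted at 74.6, 127 and 107 against 47.7, 29.8 and 43.6 CPM (1.35 ± 0.26, edgeR adjusted p = 0.00461), and Trpm3 at 84.2, 71.5 and 68.5 against 15.8, 32.8 and 33.5 CPM (1.45 ± 0.29, edgeR adjusted p = 0.0071). The tweety family gene Ttyh3, listed among chloride channels, fell 5.07-fold, from 50.6, 47.8 and 57.9 to 8.56, 9.92 and 12.3 CPM.

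Among the 17 tested ligand-gated channel genes was a subunit of an inhibitory neurotransmitter receptor. Glrb, the anchoring subunit of the glycine receptor, was near 0 at day 6 (1.496, 2.96 and 0.791 CPM) and stood at 46.02, 32.8 and 21.5 CPM at day 45 (19.1-fold; 4.26 ± 0.54, edgeR adjusted p = 0.000139).

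**Figure D2:**
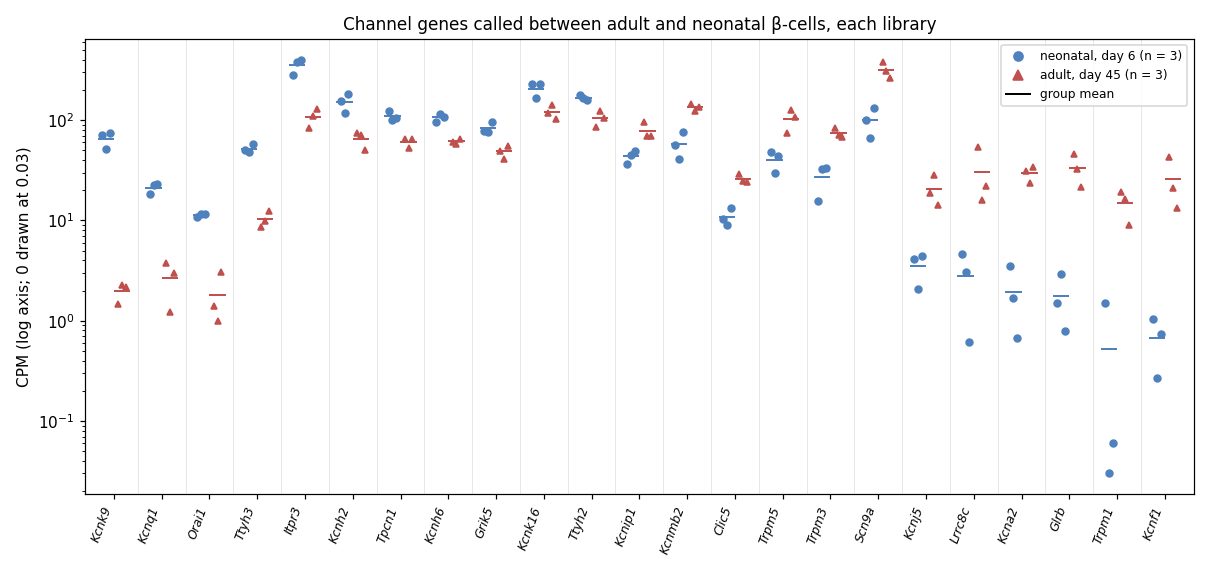
Level in every library of 23 of the 25 called channel genes, in CPM on a log axis, ordered by log2 fold change; circles are neonatal and triangles adult libraries, and short lines are group means. Kcnk9 stands at the left end with adult values near 2 CPM, Kcnf1 at the right end with neonatal values near or below 1 CPM.

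Receptors were called at 5.79% higher (14 of 242 tested) and 7.44% lower (18), with a median log2 difference of -0.14. Without adult library 1 or 2 the lower calls were 9 or 10 and the higher ones 11. The test corrected for GC and length called 13 higher and 12 lower. The split differed between families: 5 of 46 cytokine and related receptors were higher and 1 lower, while 1 of 35 receptor tyrosine kinases was higher and 5 lower. No test of that difference between families was made.

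The prolactin receptor gene Prlr had the highest adult level per kilobase of its family, 251 CPM per kb against 69.8 in neonates. It was counted at 2769, 2599 and 2097 CPM in adult and 817, 596 and 660.3 CPM in neonatal libraries, 3.6-fold higher (1.85 ± 0.16, edgeR adjusted p = 4.76e-06). Prolactin receptors signal through Jak2 and Stat5, and Cish and Socs2 are feedback suppressors that this pathway is known to induce. After the values were seen, these suppressors and the Jak kinases were added as a list of 11 tested genes. Of these, 3 were higher (27.3%), 1 lower (9.09%) and 7 not called, against 3.38% and 3.6% of all genes. Without 1 library at a time, 1 to 3 were higher and 1 lower. A part of prolactin signalling in these differences was not tested. Cish rose from 195, 184 and 150.1 to 411, 432 and 469.5 CPM (2.48-fold; 1.31 ± 0.16, edgeR adjusted p = 0.000125). Socs2 rose from 74.5, 70.5 and 67.2 to 125, 141 and 127 CPM (0.89 ± 0.19), a call lost without adult library 2 (0.84, adjusted p = 0.072). Socs3, which restrains signalling by interleukin-6 type cytokines and also belongs to the immediate early list, was lower at 17.99, 16.4 and 12.6 against 45.01, 57.8 and 42.2 CPM (-1.62 ± 0.30). The growth hormone receptor gene Ghr, whose product uses the same kinase, was not called (289.8, 267 and 229.8 against 262, 226 and 317 CPM; -0.03 ± 0.17, edgeR adjusted p = 0.947).

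Other receptors of this group rose as well. Lifr, the leukaemia inhibitory factor receptor, was counted at 364, 322 and 346 against 156, 206 and 162 CPM (0.98 ± 0.17), while its partner Il6st was not called (0.11 ± 0.22, edgeR adjusted p = 0.855). Tnfrsf11b, the soluble decoy receptor osteoprotegerin, rose 7.0-fold, from 16.1, 11.5 and 23.2 to 125, 111 and 121 CPM (2.81 ± 0.27, edgeR adjusted p = 1.43e-05). Among receptors of neurotrophins, which are growth factors of nerve cells, Ntrk2 and Ngfr were called higher, Ntrk2 as the 1 such call among 35 tested receptor tyrosine kinases. Ntrk2, the receptor of brain-derived neurotrophic factor, stood at 528, 629 and 670.4 against 306, 196 and 316 CPM (1.16 ± 0.19), and the shared low-affinity receptor Ngfr at 54.98, 54.5 and 46.2 against 18.3, 5.31 and 17.4 CPM (1.92 ± 0.39). Ngfr is also a Schwann cell marker, and the 7 genes of the neural and Schwann cell list summed to 141 to 182 CPM in adult and 137 to 247 CPM in neonatal libraries. Most of this sum was the myelin gene Mbp, at 81.4, 96.2 and 131 against 131, 234 and 106 CPM (not called, edgeR adjusted p = 0.224), while Sox10 and S100b were at 0.13 CPM or less in every library. The part of such cells in the Ngfr difference was not tested.

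G protein-coupled receptors gave 6 higher and 8 lower calls among 105 tested. Oxtr, the oxytocin receptor, had the largest rise among them, from 12.03, 6.19 and 8.76 CPM in neonates to 63.2, 61.03 and 96.5 CPM in adults (8.17-fold; 3.03 ± 0.33, edgeR adjusted p = 3.59e-05). Gpr158, a receptor of the metabotropic glutamate receptor class, was tightly grouped at both ages, at 361, 328 and 319 against 116, 111 and 109.7 CPM (2.99-fold; 1.58 ± 0.16, edgeR adjusted p = 1.96e-05). The adhesion receptor Adgrg6, which binds basement membrane collagen, rose 6.05-fold (90.6, 77.5 and 82.1 against 16.3, 7.33 and 17.7 CPM), and the orphan receptor Gpr26 rose 5.84-fold (69.03, 69.4 and 40.96 against 11.3, 4.24 and 15.1 CPM). Sstr3, a somatostatin receptor of primary cilia, stood at 347, 357 and 343 against 187, 245 and 186 CPM (0.76 ± 0.16), a call lost without adult library 1 or 2 (adjusted p = 0.0519 and 0.0625). Ptger3, a prostaglandin E2 receptor, stood at 43.8, 41.9 and 64.2 against 26.3, 16.2 and 14.7 CPM (1.39 ± 0.32) and lost its call without adult library 3 (1.17, adjusted p = 0.124).

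The receptors best known for tuning insulin release did not pass. The GLP-1 receptor gene Glp1r was counted at 619.8, 610.1 and 664 CPM in adults and 571, 427 and 603 in neonates (0.24 ± 0.16, edgeR adjusted p = 0.428). Per kilobase it was the most abundant of the tested G protein-coupled receptors in adults (109 CPM per kb). Differences were -0.25 for the GIP receptor gene Gipr, -0.66 for the fatty acid receptor Ffar1, -0.22 for the adrenergic receptor Adra2a and -0.00 for the muscarinic receptor Chrm3 (log2; edgeR adjusted p from 0.29 to 0.998). Without 1 library at a time, the family gave 5 to 7 higher and 3 to 8 lower calls. Ghsr, the ghrelin receptor and a δ-cell marker, was at 0, 0.4997 and 0.16 CPM in adults and 17.3, 3.23 and 9.55 in neonates (-5.46 ± 1.19), and the call was lost with limma-voom (adjusted p = 0.148), without adult library 3 (0.0506) and without neonatal library 1 (0.107). Gcgr, the glucagon receptor, was at 10.4, 20.6 and 7.04 against 25.7, 68.5 and 41.4 CPM (-1.83 ± 0.43), with the call lost without adult library 1 or 3 (adjusted p = 0.0986 and 0.0827) and after correction for GC and length (0.0732).

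Receptors lower in adult cells included growth factor receptors. Igf1r, the receptor of insulin-like growth factors, fell from 204, 367 and 275 to 131, 142 and 133 CPM (2.08-fold lower; -1.06 ± 0.20, edgeR adjusted p = 0.00428). Ret, the receptor of the glial cell line-derived neurotrophic factor family, fell from 151, 123 and 206 to 68.6, 55.5 and 67.8 CPM (-1.32 ± 0.22, edgeR adjusted p = 0.00146). The insulin receptor gene Insr was not called (155, 128 and 122 against 103, 103 and 135 CPM; 0.25 ± 0.19, edgeR adjusted p = 0.531). Ddr1, a collagen receptor, was lower at 207, 203 and 234 against 385, 378 and 373 CPM (-0.82 ± 0.15), but after correction for GC and length its difference was -0.35 (adjusted p = 0.175). Lrp5, a Wnt co-receptor, fell 3.49-fold, from 85.02, 96.04 and 123 to 20.4, 23.7 and 42.96 CPM (-1.80 ± 0.29, edgeR adjusted p = 0.0013). Among guidance receptors Robo2, which binds Slit proteins, moved the other way, from 254, 250.5 and 330.5 to 681, 696 and 721 CPM (2.51-fold higher; 1.33 ± 0.16, edgeR adjusted p = 7.35e-05). Its relative Robo1 was not called and its point estimate had the opposite sign (47.6, 50.8 and 50.4 against 93.5, 96.9 and 61.4 CPM; -0.76 ± 0.23, edgeR adjusted p = 0.0631).

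**Figure D3:**
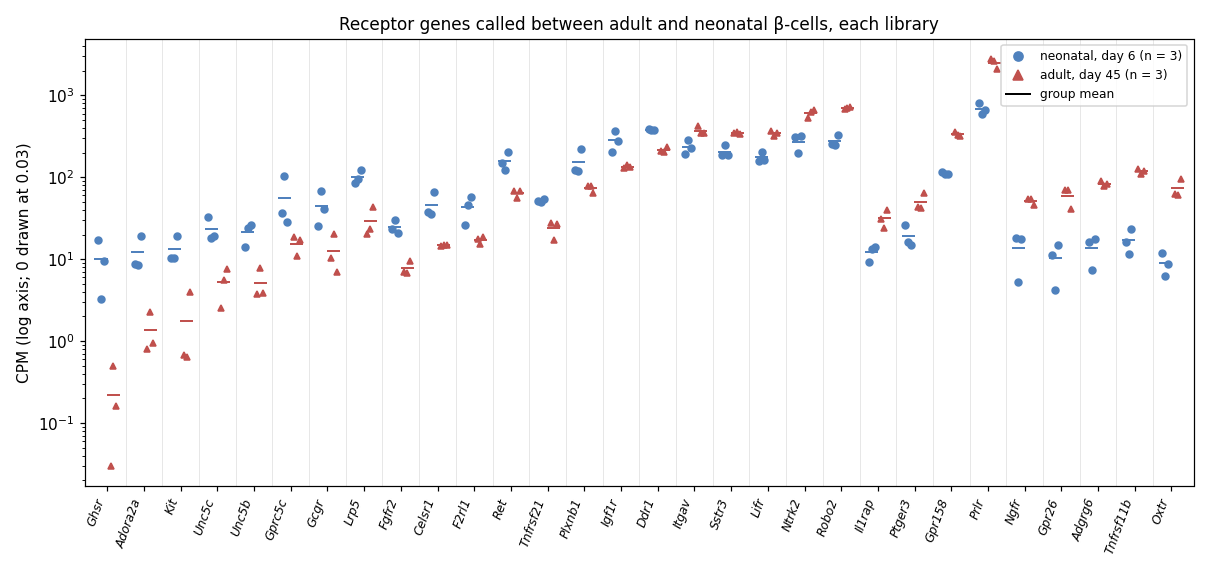
Level in every library of 30 of the 32 called receptor genes, those covered by the rule for named genes, in CPM on a log axis and ordered by log2 fold change; circles are neonatal and triangles adult libraries, and a value of 0 is drawn at 0.03. Prlr stands above all others, with adult libraries between 2097 and 2769 CPM and neonatal libraries between 596 and 817 CPM.

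Most transcription factors that were called were lower in adult cells. Of 324 tested, 30 (9.26%) were lower in adult cells and 3 (0.926%) were higher, and the median log2 difference was -0.33. A log2 difference below 0 was found for 224 of them (69.1%), against 51.5% of all tested genes. Over the 13 alternatives the calls ranged from 15 to 47 lower and from 0 to 7 higher. Without adult library 1, 2 or 3 the lower calls were 19, 18 or 15 and the higher ones 0, 1 or 1, and 44 were lower and 7 higher without neonatal 3a, the library with few immediate early transcripts. Of the 30, 13 kept their call without each library in turn, and none of the 3 higher ones did, against 128 of the 515 lower and 156 of the 484 higher genes of the whole table, or 0.895% and 1.09% of all tested genes. Klf4 was the only member of the immediate early list among the 30 (5.55, 7.35 and 3.92 against 26.99, 15.5 and 33.5 CPM; -2.17 ± 0.46), and it lost its call without adult library 3 (-1.97, adjusted p = 0.0515). The whole immediate early list had a median log2 difference of -1.42, yet 19 of its 21 tested genes were not called. Without 1 library at a time, 1 to 10 of them were lower. The part of handling in the lower factors was not tested. After correction for GC and length, 25 transcription factors were lower and 4 higher.

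Several of the lower factors are known from metabolism or from neural cells. Mlxipl encodes ChREBP, a glucose-responsive activator, and was counted at 158, 160.1 and 142 against 444, 324 and 632 CPM (3.04-fold lower; -1.61 ± 0.21, edgeR adjusted p = 0.000179). Lmx1b, a LIM homeodomain factor of serotonin neurons, fell from 47.4, 18.5 and 56.5 to 4.35, 6.995 and 9.28 CPM (-2.57 ± 0.45), and Prdm16, a cofactor best known from brown fat, from 26.02, 27.7 and 33.4 to 4.15, 1.78 and 6.72 CPM (-2.78 ± 0.49). Both had adult values below 10 CPM in every library.

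Irf1, which mediates interferon responses, was 4.7-fold lower in adults, at 28.2, 35.1 and 27.3 against 157, 87.8 and 181 CPM (-2.23 ± 0.26, edgeR adjusted p = 8.01e-05). Elf4, an Ets factor, stood at 3.48, 7.21 and 3.92 against 31.7, 72.3 and 22.6 CPM (-3.11 ± 0.48). The small Maf factor Maff (8.29, 8.85 and 10.1 against 52.04, 37.7 and 31.3 CPM; -2.15 ± 0.35) and the forkhead factor Foxo6 (6.22, 11.9 and 5.28 against 23.5, 50.04 and 57.5 CPM; -2.48 ± 0.42) completed the 7 factors of the plot that were called in every setting. Relb, a subunit of NF-κB, was lower (-2.69 ± 0.56) except with limma-voom (adjusted p = 0.0815) and without neonatal library 1 (-2.12, adjusted p = 0.0904).

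Several core β-cell factors did not pass the threshold. Nkx6-1 stood at 626, 783 and 810.3 against 664, 576 and 629 CPM (0.25 ± 0.15) and Pdx1 at 373, 380.5 and 446 against 433, 567 and 478 CPM (-0.30 ± 0.16). Neither passed (edgeR adjusted p = 0.375 and 0.291), nor did Pax6 (-0.15), Nkx2-2 (-0.49), Isl1 (-0.40), Neurod1 (-0.46), Foxa2 (-0.17) or Rfx6 (-0.09; edgeR adjusted p from 0.148 to 0.842). Among nuclear receptors, Nr3c2, the mineralocorticoid receptor, had the largest rise, from 2.73, 7.13 and 0.7303 to 42.1, 24.9 and 22.5 CPM (8.46-fold; 3.08 ± 0.65, edgeR adjusted p = 0.0117). Its call was lost without adult library 1 (2.74, adjusted p = 0.0593) and without neonatal library 1 (2.93, adjusted p = 0.0564). The thyroid hormone receptor genes Thra (-0.15) and Thrb (1.10) did not pass (edgeR adjusted p = 0.79 and 0.128).

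**Figure D4:**
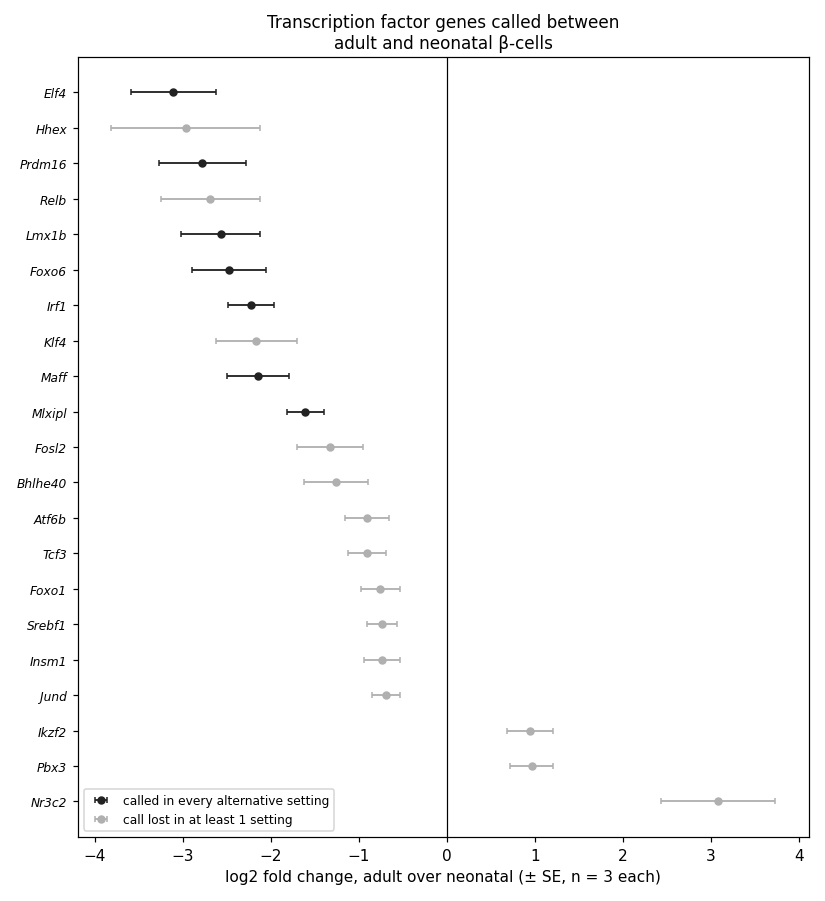
Log2 fold change of adult over neonatal β-cells, with its standard error (n = 3 each), for 21 of the 33 called transcription factor genes. Black points, from Elf4 at -3.11 to Mlxipl at -1.61, were called in every alternative setting, grey points lost the call in at least 1, and 3 genes lie to the right of 0.

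Genes lower in adult cells had GC-rich transcripts, with a median GC content of 54.9% against 46.4% in genes called higher and 49.5% in genes not called. Across 13757 genes, which are not independent of each other, the log2 difference and the GC content had a Spearman correlation of -0.24. After correction for GC and length, 414 genes were higher and 348 lower, and 329 and 263 of these were among the original calls. The DNA just before the transcription starts showed the same order. The 250 bases upstream were taken from RefSeq on mouse build GRCm38.p6 for 346 of 474 genes called higher and 397 of 508 called lower that have a symbol, some with several starts. Their median GC content was 58.0% for genes called higher and 63.6% for genes called lower, with 60.0% for tested genes not called.

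A GC box, searched as GGGCGG on both strands, was found in 46.1% of promoters of genes called higher, 65.7% of those called lower, 57.3% of those not called and 32.7% of all 32851 promoters in the table. With the calls of the GC- and length-corrected test, a comparison added after seeing the data, the shares were 49.0% and 65.2%. The remaining motifs were searched in the same way, and their shares follow for genes called higher, called lower, not called and all promoters. The Stat-type motif TTCNNNGAA was found in 5.52%, 6.74%, 5.74% and 7.02%. The TATA box, searched as TATAAA, was found in 6.79%, 5.06%, 6.24% and 12.4%. The cyclic AMP response element, TGACGTCA, was found in 1.91%, 2.62%, 2.62% and 1.55%. The E-box CACGTG was found in 8.07%, 8.99%, 8.18% and 6.02%. The CCAAT box was found in 35.2%, 35.6%, 35.3% and 33.8%. A match in letters is not a binding site.

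To let the contrast be seen in sequence, the 250 bases upstream of the first listed start are given for a channel, a receptor and a secreted peptide called higher, and for a channel, a receptor and a transcription factor called lower, all called in every setting and chosen after their values were seen. They read 5′ to 3′ on the strand of the gene, and capitals mark each GC box, as GGGCGG or, where it lies on the opposite strand, CCGCCC. The first set, higher in adults, is Scn9a (ENSMUSG00000075316, chr2:66634963-66635212, minus strand), Oxtr (ENSMUSG00000049112, chr6:112489826-112490075, minus strand) and Pdyn (ENSMUSG00000027400, chr2:129699939-129700188, minus strand).
Scn9a: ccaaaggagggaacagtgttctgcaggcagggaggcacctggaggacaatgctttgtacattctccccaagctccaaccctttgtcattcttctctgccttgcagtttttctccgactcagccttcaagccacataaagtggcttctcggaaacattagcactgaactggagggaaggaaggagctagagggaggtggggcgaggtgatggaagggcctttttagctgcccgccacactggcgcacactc
Oxtr: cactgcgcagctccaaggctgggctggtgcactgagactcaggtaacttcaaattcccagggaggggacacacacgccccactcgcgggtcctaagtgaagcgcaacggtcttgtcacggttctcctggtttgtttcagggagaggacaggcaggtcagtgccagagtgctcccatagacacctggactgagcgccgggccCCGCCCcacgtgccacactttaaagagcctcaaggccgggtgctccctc
Pdyn: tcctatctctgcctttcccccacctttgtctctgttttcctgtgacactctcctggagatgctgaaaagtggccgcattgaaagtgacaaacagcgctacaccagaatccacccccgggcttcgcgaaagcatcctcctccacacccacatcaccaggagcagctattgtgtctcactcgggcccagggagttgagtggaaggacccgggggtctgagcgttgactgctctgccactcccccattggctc
The other set, lower in adults, is Itpr3 (ENSMUSG00000042644, chr17:27057054-27057303, plus strand), Igf1r (ENSMUSG00000005533, chr7:67952007-67952256, plus strand) and Irf1 (ENSMUSG00000018899, chr11:53769764-53770013, plus strand).
Itpr3: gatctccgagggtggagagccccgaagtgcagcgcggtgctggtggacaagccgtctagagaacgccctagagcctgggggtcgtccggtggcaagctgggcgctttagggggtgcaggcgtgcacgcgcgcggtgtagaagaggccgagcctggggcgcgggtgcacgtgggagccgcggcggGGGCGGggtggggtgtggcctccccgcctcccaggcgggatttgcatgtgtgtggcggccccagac
Igf1r: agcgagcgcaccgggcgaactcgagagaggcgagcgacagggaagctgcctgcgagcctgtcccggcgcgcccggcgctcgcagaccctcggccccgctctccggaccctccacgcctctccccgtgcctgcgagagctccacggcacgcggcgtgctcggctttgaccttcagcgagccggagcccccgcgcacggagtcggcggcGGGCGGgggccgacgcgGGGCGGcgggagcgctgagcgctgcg
Irf1: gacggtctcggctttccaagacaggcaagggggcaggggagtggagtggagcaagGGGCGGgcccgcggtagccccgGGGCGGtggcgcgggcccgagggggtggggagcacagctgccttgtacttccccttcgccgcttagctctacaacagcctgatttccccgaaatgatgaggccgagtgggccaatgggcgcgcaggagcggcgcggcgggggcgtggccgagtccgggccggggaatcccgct
The windows of Scn9a and Pdyn hold no GC box and that of Oxtr holds 1, while those of Itpr3, Igf1r and Irf1 hold 1, 2 and 2. Their GC contents were 54.4%, 61.6% and 57.2% for the genes higher in adults and 72.0%, 77.6% and 71.2% for the genes lower in adults. Each of the latter lay above the median of 63.6% for promoters of genes called lower, of which 65.7% held a GC box. The windows shown therefore overstate the contrast between the groups.

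Secreted proteins were called at 8.25% higher (17 of 206 tested) and 8.74% lower (18), with a median log2 difference of -0.51. The lower calls were 8 without each adult library in turn, 11 or 8 without neonatal 1 or 3b and 27 without neonatal 3a. The test corrected for GC and length called 18 higher and only 9 lower. Peptide hormones and neuropeptides held 10 of the 17 higher calls among 29 tested genes, but several of these, the insulin genes and Ucn3 included, are used as maturity markers. That share was 34.5%, against 3.38% of all genes, and 6 to 11 peptide genes were higher without 1 library at a time. Of 32 guidance ligands tested, 7 were lower (21.9%, against 3.6% of all genes), and 3 to 9 were lower without 1 library at a time.

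Among the peptides, Pdyn, the precursor of the dynorphin opioids, had the largest rise. It was counted at 44.9, 24.8 and 39.2 CPM in adults and 0.976, 0.605 and 1.03 in neonates (41.1-fold; 5.36 ± 0.48, edgeR adjusted p = 6.45e-06), so neonatal libraries were all near 1 CPM. Pdyn was listed as a δ-cell marker. Of the other tested genes of that list, Ghsr, Hhex and Rbp4 were called lower, all with calls lost in some setting, and the hormone gene Sst was not called (257, 189 and 332 against 355, 113 and 239.6 CPM; 0.14 ± 0.40, edgeR adjusted p = 0.908). Nucb2, the precursor of nesfatin-1, stood at 618, 638 and 678 against 440.4, 313 and 269.5 CPM (0.92 ± 0.18) and lost its call after correction for GC and length (0.45, adjusted p = 0.0549). Tph1, which makes the precursor of serotonin and thereby of another product released from β-cell granules, was counted at 762, 689.8 and 428 against 29.3, 18.2 and 23.6 CPM (26.4-fold; 4.73 ± 0.25). Ddc, which carries out the next step of serotonin synthesis, rose 2.03-fold, from 343, 182 and 252 to 457, 542 and 576 CPM (1.02 ± 0.20, edgeR adjusted p = 0.00574). Pyy, an islet and gut peptide and one of the PP and ε-cell markers, was at 38.4, 11.6 and 53.5 against 209, 128 and 258 CPM and just missed the threshold (-2.52 ± 0.57, edgeR adjusted p = 0.0513).

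Growth factors and proteins that bind them moved in both directions. Egf, the epidermal growth factor gene, rose 5.27-fold, from 44.3, 27.8 and 31.9 to 184, 155 and 209 CPM (2.40 ± 0.22, edgeR adjusted p = 1.02e-05). Igfbp5, which binds insulin-like growth factors, rose 3.77-fold, from 89.05, 45.7 and 119.5 to 336, 321 and 301 CPM (1.91 ± 0.28, edgeR adjusted p = 0.00136). The ligand gene Igf2, by contrast, had overlapping values of 1.67, 1.499 and 4.08 and 13.1, 2.56 and 38.2 CPM and passed only in part of the settings, with neonatal 3b, the library with mesenchymal transcripts, at the top. Dlk1, a Notch-like protein that is shed from immature cells, was 17.6-fold lower, at 1.605, 3.997 and 5.601 against 73.96, 71.7 and 50.5 CPM. Pdgfa, a platelet-derived growth factor, fell from 24.3, 44.99 and 36.6 to 8.696, 11.8 and 12.9 CPM (-1.66 ± 0.36), except without adult library 1 (-1.52, adjusted p = 0.0654). Vegfa, the main islet signal to blood vessels, was not called (564, 579 and 541 against 714, 606 and 862 CPM; -0.37 ± 0.15, edgeR adjusted p = 0.169).

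Of 90 tested genes of the extracellular matrix and its proteases and inhibitors, 4 (4.44%) were higher and 5 (5.56%) lower, with a median log2 difference of -0.71. These shares lay close to the 3.38% and 3.6% of all genes. The lower count was 2, 2 and 3 without adult library 2, adult library 3 and neonatal 3b, and 10 without neonatal 3a. The higher genes were Matn2, Serpini1, Col5a2 and Spock2, the last with a call lost when scaled by library size alone and without adult library 3. Matrilin-2, encoded by Matn2, is a filament-forming matrix protein, and its gene was counted at 873, 801 and 847 CPM in adults and 211, 175 and 269 in neonates (3.84-fold; 1.94 ± 0.17, edgeR adjusted p = 6.15e-06). Serpini1, the protease inhibitor neuroserpin, stood at 79.9, 78.3 and 67.5 against 24.3, 10.8 and 5.78 CPM (2.47 ± 0.42, edgeR adjusted p = 0.0036). Col5a2, a chain of collagen V, rose from 37.3, 16.6 and 22.3 to 60.5, 87.8 and 114 CPM (1.78 ± 0.32), while the mesenchymal collagen Col1a1 was not called (8.36, 3.85 and 2.72 against 5.66, 0.538 and 51.3 CPM; -1.94 ± 1.38, edgeR adjusted p = 0.521). Lower guidance ligands included the membrane semaphorins Sema4c (5.69, 3.78 and 6.001 against 22.1, 19.97 and 43.6 CPM; -2.47 ± 0.45) and Sema4b (41.8, 55.8 and 62.6 against 103, 219 and 142 CPM; -1.54 ± 0.26). The secreted semaphorin Sema3c was lower as well (-1.64 ± 0.37), but lost its call without each adult library (adjusted p = 0.0624, 0.0729 and 0.0528).

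**Figure D5:**
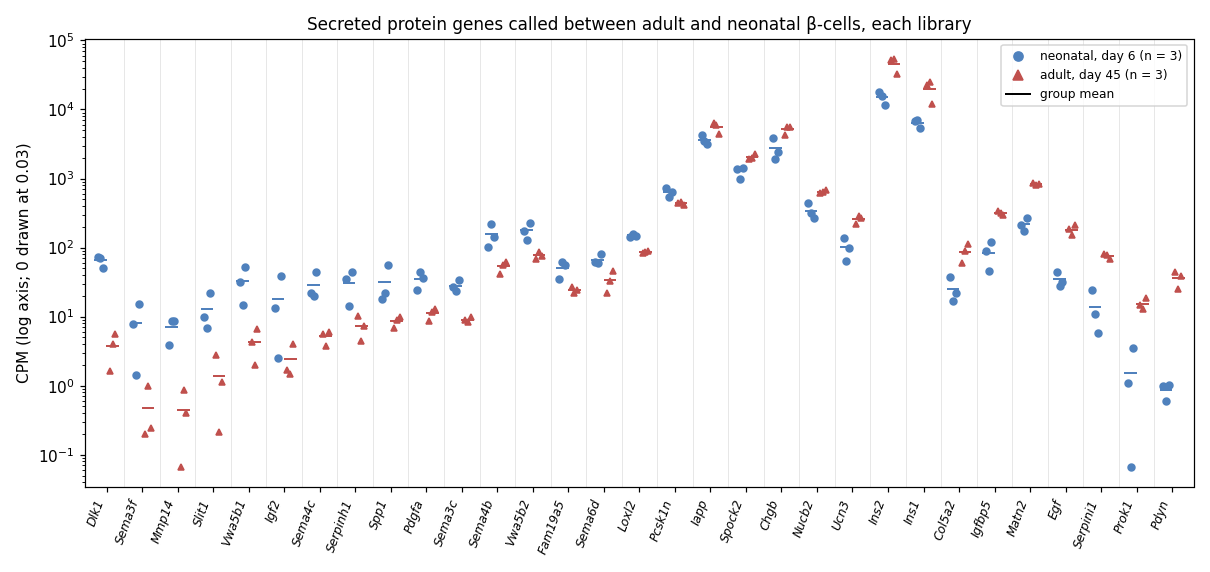
Level in every library of 31 of the 35 called genes of secreted proteins, in CPM on a log axis and ordered by log2 fold change; circles are neonatal and triangles adult libraries, and short lines are group means. The insulin genes stand at the top, and Pdyn at the right end has neonatal values near 1 CPM.

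Adhesion proteins were called at 10.9% higher (11 of 101 tested) and 6.93% lower (7), with a median log2 difference of -0.11. The counts were 6, 7 and 9 higher and 5, 4 and 4 lower without adult library 1, 2 and 3, and 11 and 4 after correction for GC and length. Its list of synaptic and neural adhesion proteins had 7 higher (13%) and 6 lower (11.1%) of 54 tested, with a median of -0.09, and 3 or 4 higher without adult library 1 or 2. Cntnap2, a contactin-associated protein, stood at 66.6, 58.2 and 61.2 against 4.75, 5.38 and 9.19 CPM (9.61-fold; 3.26 ± 0.34, edgeR adjusted p = 2.28e-05). The teneurin Tenm2 rose from 29.4, 20.1 and 29.9 to 79.7, 88.3 and 85.8 CPM (1.68 ± 0.25). The cadherins Cdh8 (159, 156 and 149 against 34.5, 36.05 and 20.9 CPM; 2.34 ± 0.23) and Cdh7 (82.1, 70.1 and 65.7 against 23.6, 7.87 and 17.2 CPM; 2.16 ± 0.35) were higher too, and so was Pcdha11 (1.98 ± 0.32), whose reads may be shared with other genes of its cluster. In the lower direction, the receptor phosphatase Ptprs fell from 64.98, 84.7 and 127 to 26.1, 25.3 and 23.7 CPM (-1.88 ± 0.27), Flrt1 from 40.7, 74.1 and 86.5 to 24.01, 22.1 and 18 CPM (-1.65 ± 0.31) and Igsf1 from 146, 135 and 178 to 43.9, 57.5 and 79.05 CPM (-1.35 ± 0.23).

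Solute carriers were called at 1.89% higher (4 of 212 tested) and 2.83% lower (6), against 3.38% and 3.6% of all genes, with a median of -0.01. There were 2 higher and 2 lower without adult library 1, 10 and 9 without neonatal 3a, and 4 and 3 after correction for GC and length. Slc26a3, a chloride and bicarbonate exchanger of gut epithelium, was the extreme case at 56.5, 35.9 and 39.6 against 0.3903, 0.874 and 1.03 CPM (56.7-fold; 5.82 ± 0.47). Slc2a13, a myo-inositol transporter, rose 4.6-fold, from 23.9, 28.8 and 22.3 to 135, 114 and 96.4 CPM (2.20 ± 0.23, edgeR adjusted p = 3.28e-05). Slc38a5, a glutamine transporter linked to dividing endocrine cells, fell from 37.4, 35.8 and 13.3 to 1.003, 0.999 and 3.04 CPM (17.2-fold lower; -4.11 ± 0.59, edgeR adjusted p = 0.000522).

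Downstream of receptors and channels, 12 of 175 tested signalling genes were higher (6.86%) and 10 lower (5.71%). Without adult library 1, 2 or 3 the counts were 5, 5 or 6 higher and 7, 6 or 5 lower. They were 12 higher and 6 lower after correction for GC and length. Pde5a, the phosphodiesterase that degrades cyclic GMP, was 4.55-fold higher, at 698, 540.0 and 395 against 110.4, 85.7 and 163 CPM (2.18 ± 0.25, edgeR adjusted p = 0.000228). Npr1, the receptor guanylyl cyclase for natriuretic peptides that makes cyclic GMP and a gene picked after its values were seen, rose 7.22-fold, from 3.903, 6.19 and 2.56 to 32.8, 38.7 and 19.8 CPM (2.85 ± 0.46, edgeR adjusted p = 0.00136). Pde3a, a cyclic nucleotide phosphodiesterase, stood at 1.34, 0.214 and 2.0 against 11.97, 21.6 and 36.1 CPM (-4.29 ± 0.71; call lost with limma-voom, adjusted p = 0.0619), whereas the β-cell isoform Pde3b was not called (328, 255 and 304 against 268, 287 and 333 CPM; edgeR adjusted p = 0.997). A list of the cyclic GMP pathway, drawn up after the values were seen, had 3 higher (18.8%) and 1 lower (6.25%) of 16 tested genes. The shares of all genes were 3.38% and 3.6%. Its median log2 difference was -0.65, so the typical member lay lower in adults, and 12 members were not called. Without 1 library at a time, 2 were higher and 1 or 2 lower.

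Of 70 tested genes of calcium binding and calcium-dependent signalling, 6 were higher (8.57%), 3 lower (4.29%) and 61 not called. The shares of all genes were 3.38% and 3.6%. Without 1 library at a time, 3 to 8 were higher and 0 to 3 lower. Cpne4, a calcium-dependent membrane-binding protein, was below 1 CPM in every neonatal library (0.325, 0.269 and 0.669) and at 45.95, 27.6 and 30.4 CPM in adults. Rcan2, an inhibitor of the calcium-dependent phosphatase calcineurin, rose 2.13-fold, from 70.97, 50.4 and 65.6 to 144, 119 and 136 CPM (1.09 ± 0.20, edgeR adjusted p = 0.00403). Among regulators of kinase and G protein signalling, the phosphatase Dusp5 fell from 149, 163 and 118 to 45.1, 42.8 and 48.6 CPM (-1.66 ± 0.21, edgeR adjusted p = 0.000128), Rasgrf1 from 54.2, 86.5 and 99.4 to 29.9, 35.9 and 24.2 CPM (-1.42 ± 0.28) and the G protein regulator Rgs11 from 110.2, 106 and 191 to 57.1, 44.7 and 49.8 CPM (-1.43 ± 0.24). Gnaz, the α-subunit of an inhibitory G protein, was 1.91-fold lower, at 164, 158 and 179 against 261, 406 and 290.4 CPM (-0.93 ± 0.18). Rgs2 moved the other way, from 12.2, 19.97 and 6.15 to 223, 63.3 and 111 CPM (3.38 ± 0.59), with adult library 1 well above the others and the call lost without neonatal 3a (3.86, adjusted p = 0.0616).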

How the data were processed

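The authors deposited raw counts, whole numbers of reads per Ensembl gene with no normalization. Per the labels' protocols, libraries were made from total RNA with a stranded SMARTer kit, described for islets. The tools that appear in the submitters' processing notes are HTSeq 0.7.1, DESeq2 1.16.0, cutadapt 1.13 and GSNAP, with builds NCBIM37 and mm9. Whether the counting used strand is not stated there. Rows that name no gene were left out: 16.33% to 32.53% of reads lay outside annotated features and 14.89% to 53.64% were not aligned. Of 37310 gene identifiers, 32620 (87.4%) matched a symbol.

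Genes passing filterByExpr (minimum count 10, minimum total 15) were fitted with edgeR 4.0.16 (TMM factors, robust quasi-likelihood, 4 residual degrees of freedom, no covariate), with Benjamini-Hochberg adjustment over all 14304 genes. CPM uses effective library sizes. Levels per kilobase divide CPM by the length of each gene's longest GENCODE transcript, an annotation other than that of the counts. Rankings of genes by these levels depend on that choice. Fits were tested on simulated data. Alternatives were library size only, relative log expression factors, no filter, a minimum count of 50, DESeq2 1.42.0, limma-voom 3.58.1, removal of GC and length trends by splines (the correction named in the report), and leaving out each library. Named genes were up to 6 called genes per direction and list, and 20 per direction over all genes, with the largest changes and non-overlapping groups, plus all anchors and markers. A further 47 genes and 5 lists were added after the values were seen. Members and lists were chosen with earlier results of these data known. Lists built on symbols include a few misfits. Some genes and their results are not reported here.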

Additional observations from a re-analysis of the deposited data

How the results depend on the processing

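Scaling by library size alone gave 321 higher and 872 lower genes, DESeq2 747 and 842, and leaving out each library in turn 217 to 669 higher and 188 to 711 lower. The other alternatives, namely relative log expression factors, no filter on low counts, a minimum count of 50, limma-voom, and correction for GC and length, stayed within 1.5 times of the counts reported. The difference of Iapp, amylin, was 0.61 and turned to -0.12 after correction for GC and length (adjusted p = 0.677; 0.000173 to 0.677 over the alternatives). The cause of these changes was not tested. Of the 195 called genes covered by the rule for named genes, 85 stayed called without each library in turn and 110 lost the call at least once. No paired analysis was possible because the column headings of the ages share number 1 and, ambiguously, number 3, and the labels tie no libraries together. Levels near 1 CPM or below, such as those of Pdyn and Cpne4 in neonates, rest on few reads and fix the size of a rise poorly.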

Other observations

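Enzymes that write, read or remove DNA methylation and histone marks were called at 4.35% higher (4 of 92 tested) and 14.1% lower (13), against 3.38% and 3.6% of all genes, with a list drawn up after the values were seen. Without adult library 1, 2 or 3 the counts were 1, 1 or 2 higher and 9, 8 or 10 lower. Dnmt3a, a de novo DNA methyltransferase, fell from 674, 909.9 and 827 CPM in neonatal libraries 1, 3a and 3b to 251, 256 and 276 CPM in adult libraries 1, 2 and 3 (3.08-fold lower; -1.62 ± 0.16, edgeR adjusted p = 1.32e-05). Tet3, an enzyme that oxidises methylated cytosine and so acts in the opposite direction, fell as well, from 182, 245 and 209.8 to 74.4, 91.6 and 66.2 CPM (-1.45 ± 0.19, edgeR adjusted p = 0.000236). Uhrf1, which brings the maintenance methyltransferase to replicating DNA, was at 4.28, 6.995 and 6.401 CPM in adults and 31.3, 15.7 and 36.1 in neonates (-2.23 ± 0.44). The histone enzymes Kdm6b (84.8, 75.7 and 81.5 against 236, 171 and 222 CPM), Dot1l (48.96, 57.4 and 47.04 against 106, 268 and 132 CPM) and the remodeller Chd7 (222, 267 and 275 against 459.9, 527 and 513 CPM) were lower too. Setd7, a lysine methyltransferase, was 2.06-fold higher, at 290.4, 324 and 309 against 131, 152 and 165 CPM (1.04 ± 0.16, edgeR adjusted p = 0.00114). These 7 genes were called in every alternative setting that tested them. Of other such enzymes called lower, Dnmt1 (-0.62, adjusted p = 0.0828) and Kmt2b (-0.45, adjusted p = 0.119) lost their calls after correction for GC and length.

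Proteins of endocytosis and of vesicles in nerve terminals, another list drawn up after the values were seen, had 10 higher and 2 lower of 54 tested genes (18.5% and 3.7%), with a median of 0.27. The higher count was 4 without each adult library in turn and 6 without neonatal 3b, and no more than 2 were lower. Synpr, a vesicle membrane protein, rose 4.44-fold (222, 177 and 171 against 56.7, 44.9 and 26.8 CPM; 2.15 ± 0.25, edgeR adjusted p = 7.14e-05), Amph, which binds clathrin coats, 4.51-fold (108, 121 and 126 against 26.2, 10.3 and 41.99 CPM; 2.17 ± 0.40, edgeR adjusted p = 0.00784) and Dnm3, a dynamin that cuts vesicles off the membrane, 2.45-fold (119, 126 and 98.7 against 40.1, 53.6 and 46.3 CPM; 1.29 ± 0.21, edgeR adjusted p = 0.00166).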
